A study of Ovis aries with 40 samples.

Results

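The genes described here encode the proteins of the cytosolic ribosome. They were chosen by symbol: RPL or RPS followed by a number, with an optional letter or L ending, together with RPLP0, RPLP2 and RPSA, and without the RPS6K kinases. Of the 9155 genes that had a probe set with 1 gene symbol, 65 were ribosomal protein genes by this rule, 41 of the large and 24 of the small subunit. Where a gene had several such probe sets, the one with the highest mean signal was used. A gene was called detected when its mean signal reached 61.8, which is the middle value over all non-control probe sets. Of the 65 genes 63 were detected, and of all genes 6360.

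Gene expression had been measured in the longissimus dorsi (LD) muscle, the long muscle of the loin, of 40 Poll Dorset sheep at 78 weeks of age, 1 GeneChip Bovine Genome array per animal. The animals were progeny of 6 sires that were extreme in their breeding value for the depth of the eye muscle (EBV). The high muscling group held 19 animals, 8 by sire 11, 7 by sire 2 and 4 by sire 7, and the low muscling group held 21 animals, 8 by sire 16, 5 by sire 17 and 8 by sire 5. The EBV is that of the sire, and the sources used here give no sex, dam or muscle weight for the animals. No animal was treated, and no sire had progeny in both muscling groups. RNA came from whole muscle, in which fewer cells of a type and less RNA per cell cannot be told apart.

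The ribosome translates mRNA into protein. Its small subunit reads the mRNA, and its large subunit joins the amino acids and lets the growing chain out through a tunnel. The ribosomal proteins are built on the ribosomal RNAs in fixed proportion, and their mRNAs begin with a terminal oligopyrimidine (TOP) tract through which nutrient and growth signals, by way of mTOR, set their translation together. In muscle the number of ribosomes is among the limits on how much protein a fibre can make, and the mRNAs of ribosomal proteins are among the most abundant of a cell.

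The signals of the ribosomal protein genes were high and varied little between the animals. The median over the 65 genes of the mean signal was 11295, against 229.6 over the 6360 detected genes, and the median standard deviation of the log2 signal was 0.23 over the 63 detected genes, against 0.38. The spread was not compared with that of equally bright genes, so it is not shown to be particular to these genes. The mean of RPL24, a protein at the contact between the subunits, was 20642 ± 2497 (SD, n = 40), and RPL4, which lines the exit tunnel, had 18545 ± 1924. At the other end were RPL3L, the striated muscle paralog of RPL3, with 1619 ± 294.2, and RPS28, at the mRNA exit side of the small subunit, with 859.8 ± 164.1. These are values of single probe sets, and a higher signal of a probe set does not show more mRNA. RPL37 of the large subunit had a mean signal of 51.6 and RPS19, which is mutated in Diamond-Blackfan anaemia in humans, had 23.9. Both were below the limit and were not tested.

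The probe sets were designed for cattle and were hybridised with sheep RNA, and ribosomal protein genes have many processed pseudogenes. Of the 65 genes, 62 had the same symbol among the annotated genes of sheep, the exceptions being RPL15P, RPL17 and RPL26. Of the probe sets used, the names of 2 (RPL10 and RPLP0) mark probes shared with other sequences, and the names of 11 others mark probes for several transcripts of 1 gene. A further 25 probe sets carried the symbol of 17 of the genes, and 20 of them were detected. The correlation of these 20 with the probe set used ranged from -0.39 to 0.94 over the 40 animals, with a median of 0.19, so a result for a gene is a result for the probe set used. The second probe sets of RPL10 (r = 0.94), RPS12 (0.74) and RPLP0 (0.68) followed the probe set used most closely. The arrays were alike, the median correlation of an array with the others being 0.925 to 0.943. All 9 of the measured markers of skeletal muscle fibres were detected.

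Ribosomal protein mRNA was highest in the progeny of sires 5 and 16, and the large and the small subunit moved together. The level of a subunit in an animal is the mean, over its detected genes, of the log2 signal minus the mean of that gene over the 40 arrays. For the large subunit (40 genes), the level was 0.23 ± 0.08 (SD, n = 8) in the family of sire 5 and 0.14 ± 0.10 (n = 8) in that of sire 16. It was -0.06 ± 0.10 (n = 8) in the family of sire 11, -0.16 ± 0.08 (n = 7) in that of sire 2, -0.15 ± 0.14 (n = 4) in that of sire 7 and -0.15 ± 0.08 (n = 5) in that of sire 17. The small subunit (23 genes) gave the same picture, with 0.22 ± 0.09 for sire 5, 0.13 ± 0.09 for sire 16, -0.09 ± 0.08 for sire 11, -0.11 ± 0.10 for sire 2, -0.13 ± 0.13 for sire 7 and -0.15 ± 0.09 for sire 17.

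**Figure D1:**
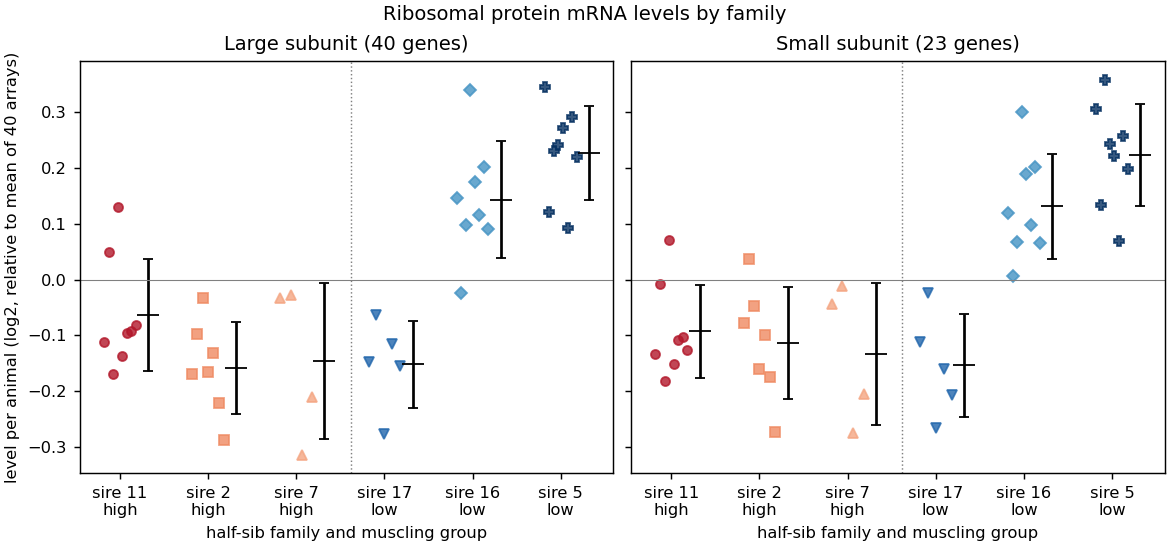
Level of the large (left, 40 genes) and small (right, 23 genes) subunit in each animal, as mean log2 signal relative to the mean of the 40 arrays, by sire family, with the family mean and SD beside the points. The families of sires 16 and 5 lie mostly above 0, the 5 animals of sire 17, also of low muscling, lie below 0, and so do most but not all animals of the 3 high muscling families.

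Within the low muscling group, the family of sire 17 did not overlap with the other families. The 5 progeny of sire 17 had large subunit levels of -0.15, -0.06, -0.28, -0.12 and -0.15 and small subunit levels of -0.11, -0.02, -0.27, -0.16 and -0.21. All of these were under the lowest large subunit level in the family of sire 5 (0.09) and the lowest in that of sire 16 (-0.02), and likewise for the small subunit, with 0.07 for sire 5 and 0.01 for sire 16. The 4 progeny of sire 7, of high muscling, had -0.03, -0.03, -0.31 and -0.21 for the large and -0.04, -0.01, -0.28 and -0.21 for the small subunit. The high muscling animals as a whole ranged from -0.31 to 0.13 for the large subunit, with a median of -0.11, and the low muscling animals from -0.28 to 0.34, with a median of 0.12.

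Over the 40 animals, the levels of the large and the small subunit had a Pearson r of 0.970 and a Spearman rho of 0.962. Without the 2 animals farthest from the median of the large subunit, r was 0.964. It was 0.897 in high muscling, 0.971 in low muscling and 0.912 when the mean of each family was removed. Both levels come from the same array, so anything that scales an array enters both of them, and the value is a description.

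**Figure D2:**
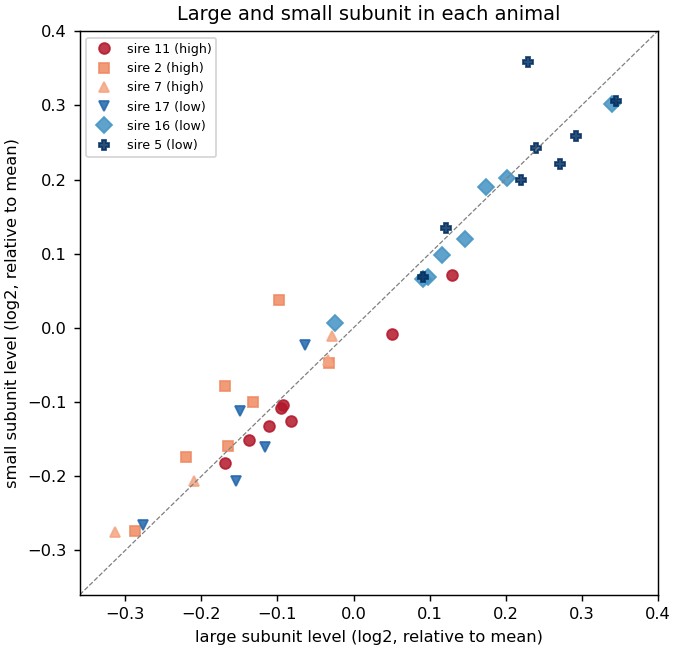
Level of the small subunit (vertical) against that of the large subunit (horizontal), both as log2 relative to the mean of the 40 arrays, for each of the 40 animals, with sire and muscling group by symbol and colour and the dashed line marking equal levels. The animals follow the line (r = 0.970), with those of sires 5 and 16 at the upper end.

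The difference between the subunits was small beside either level for the muscling groups and for sire 17, but not for sire 11. The large minus the small subunit level differed between high and low muscling by -0.01, with a standard deviation within families of 0.04, while the difference between high and low was -0.22 for the large subunit and -0.21 for the small subunit, with standard deviations within families of 0.10 for both. After quantile normalization the difference between high and low was -0.13 for the large and -0.12 for the small subunit. The progeny of sire 17 differed from the mean of the families of sires 5 and 16 by -0.34 in the large and -0.33 in the small subunit, and by -0.20 in both after quantile normalization. The progeny of sire 11 differed from the mean of those of sires 2 and 7 by 0.09 in the large and 0.03 in the small subunit, and the large minus the small subunit level by 0.06. With each array centred on its median, the differences of sire 11 were 0.16 in the large and 0.10 in the small subunit, and after quantile normalization they were 0.06 and 0.01. In this contrast the difference between the subunits exceeded its standard deviation within families, but with the mean over the probe sets of each gene it was 0.02. No test was made on the subunit levels, nor of sire 17 against the high muscling families.

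The question put by the muscling groups was whether the muscle of animals bred from high and low muscling sires differed in ribosomal protein mRNA. Between high and low muscling, 62 of the 63 genes had the lower mean in high muscling, the exception being RPL3L, as did 55.8% of all genes. At an adjusted p under 0.05 (limma with sire as a random block), 16 of the 63 were lower. These 16 are 25.4% of the genes, and among all 6360 genes tested 5.5% were lower at this limit. None was higher. Of the 40 large subunit genes 12 were lower, and of the 23 small subunit genes 4. The median log2 difference was -0.19 over the 40 and -0.18 over the 23 genes, against -0.04 over all genes. After quantile normalization both medians were -0.10, against -0.05 over all genes. At an unadjusted p under 0.05, 43 of the 63 genes differed, and all 43 were lower, while 21.8% of all genes differed at this p in either direction.

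**Figure D3:**
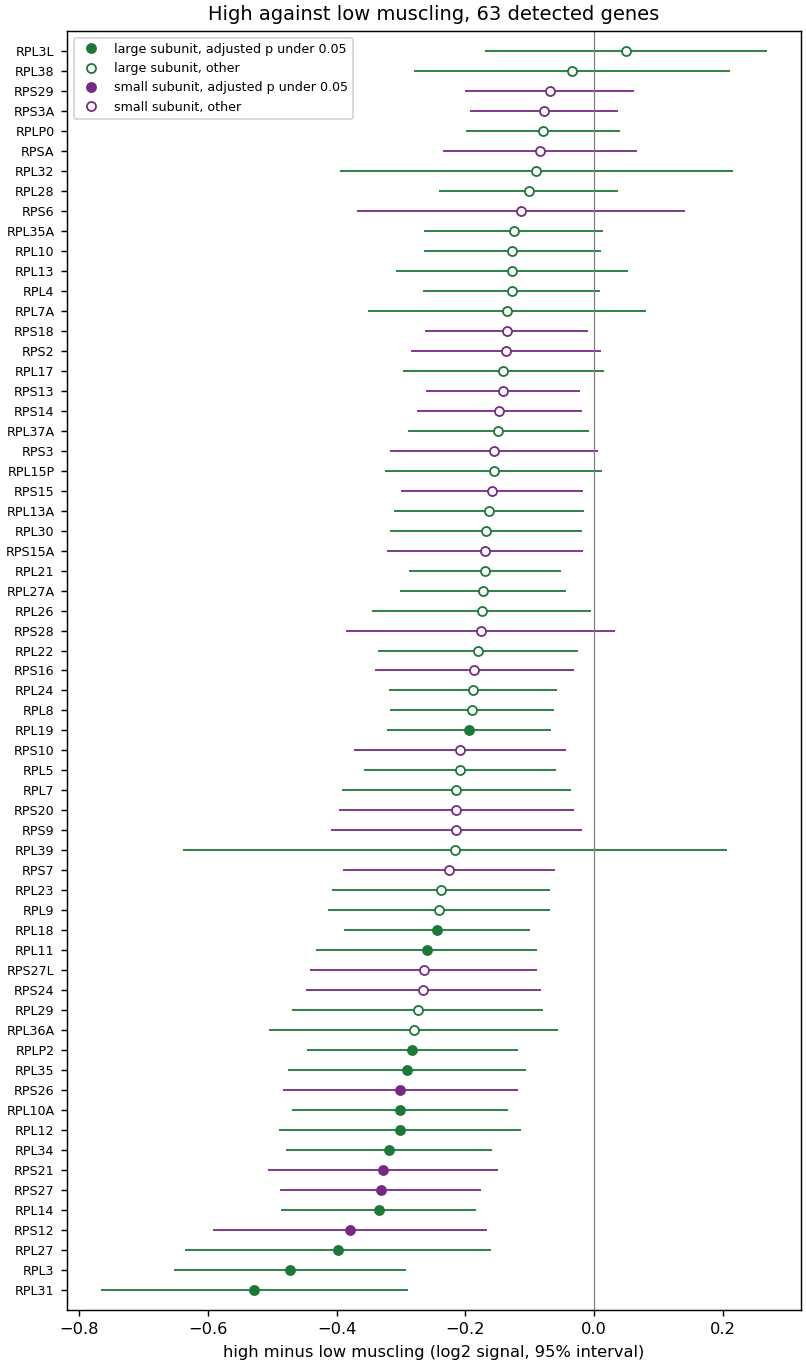
Difference between high and low muscling in log2 signal for the 63 detected genes, with 95% intervals from limma, the large subunit in green and the small subunit in purple, and filled points for an adjusted p under 0.05. The values run from -0.53 (RPL31) to 0.05 (RPL3L), and the 16 filled points all lie below 0.

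RPL3, a large subunit protein that reaches toward the site of peptide bond formation, had the smallest p of the genes. Its signal was 5399.6 to 8763 in high muscling, with a median of 6544, and 7309 to 12583 in low muscling, with a median of 9088. The ranges overlapped, and the family medians were 6161 (sire 11), 6859 (sire 2) and 7161 (sire 7) in high muscling and 7800.2 (sire 17), 8967 (sire 16) and 10154 (sire 5) in low muscling. Each low muscling family thus had a higher median than each high muscling family. The difference was -0.47 ± 0.09 (log2, SE), with an adjusted p of 0.000946. A second and dimmer probe set with this symbol did not follow it (r = 0.07), and with the mean over both the difference was -0.13 (0.728). Without the progeny of sire 5 the adjusted p was 0.0886, and without those of sire 16 it was 0.0516.

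RPL31, at the rim of the exit tunnel, had the largest difference, -0.53 ± 0.12 (adjusted p = 0.00471). Signals were 4614 to 6951 in high muscling, with a median of 5513, and 4949 to 11933 in low muscling, with a median of 8885. The overlap came mostly from sire 17, whose 5 progeny had 5833, 6064, 4949, 6153 and 5263, inside the range of high muscling. The progeny of sire 16 had 7589 to 10450.3, with a median of 9071, and those of sire 5 had 6832 to 11933, with a median of 9764.

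The other large subunit genes among the 10 with the smallest p moved by less. RPL14 had a median of 8331 in high (7199 to 9231) and 10987 in low muscling (7483 to 13273), and its difference was -0.33 ± 0.07 (adjusted p = 0.00471). RPL34 had a median of 9674 in high (7879 to 11879) and 12520 in low muscling (8841 to 15733), with a difference of -0.32 ± 0.08 (0.00970). For both, the groups overlapped. RPL10A, the protein of the mobile L1 stalk that guides used tRNAs out, had a median of 8603 in high (7829.6 to 10965) and 11463 in low muscling (8058 to 14195) and fell by 0.30 ± 0.08 (0.0193). RPL18 had a median of 7469 in high (6393 to 9612) and 9129 in low muscling (7136 to 10627) and fell by 0.24 ± 0.07 (0.0286). RPLP2, an acidic protein of the P stalk that recruits elongation factors, had a median of 4483 in high (3638 to 5485) and 5426 in low muscling (3759 to 7108) and fell by 0.28 ± 0.08 (0.0255). RPLP0, which anchors this stalk, was among the least variable genes (log2 SD 0.12) and differed by -0.08 ± 0.06 (adjusted p = 0.476).

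In the small subunit, RPS27, a zinc finger protein, had a median of 11389 in high (9849 to 13046) and 14987 in low muscling (9978 to 17124), a difference of -0.33 ± 0.08 (adjusted p = 0.00651). RPS21 had a median of 9664 in high (8209 to 11796) and 13061 in low muscling (8709 to 16379), a difference of -0.33 ± 0.09 (0.0168). RPS12, in the beak of the small subunit, had a median of 9852 in high (7426 to 11786) and 13798 in low muscling (8281 to 17936), a difference of -0.38 ± 0.11 (0.0206). With the mean over all 4 of its probe sets, RPS12 had -0.19 (0.581). In all 3 genes the 5 progeny of sire 17 lay inside the range of high muscling. The lowest of sire 16 also did for RPS21 (11731) and RPS12 (10326), and no animal of sire 5 did. The remaining 6 genes that were lower were RPL27, RPS26, RPL12, RPL35, RPL19 and RPL11, with differences of -0.40 to -0.19 and adjusted p from 0.0301 to 0.0499. RPL11 is known for binding MDM2 when ribosome assembly is disturbed, and RPS26 lies beside the mRNA at the exit of its channel. RPL27, RPS26, RPL19 and RPL11 are named here after their values were seen.

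RPL3L replaces RPL3 in ribosomes of skeletal and heart muscle in mice. It was the gene that did not share the direction, with a median of 1580 in high (1105 to 2315) and 1555 in low muscling (1224 to 2097), a difference of 0.05 ± 0.11 and an adjusted p of 0.848. Its 95% interval was -0.17 to 0.27. It turned to -0.01 when each array was centred on its median, to -0.06 without the progeny of sire 2 and to -0.01 without those of sire 7. The correlation of RPL3L with RPL3 over the 40 animals was 0.20.

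The count of 16 depended on the unit of replication, the families and the scaling. With the 6 sire means as samples, 3 against 3, limma found 0 of the 63 and 0 of all genes, and 3 of the 63 had an unadjusted p under 0.05. The count was 0 without the progeny of sire 5 (10 genes at an unadjusted p under 0.05), 0 without those of sire 16 (20 genes at this p), 5 without those of sire 2, 6 without those of sire 7, 22 without those of sire 11 and 50 without those of sire 17. The calls among all genes moved from 495 to 23, 29, 290, 272, 685 and 1221 in the same order. How many of all genes had an unadjusted p under 0.05 in these fits was not counted. The 3, 10 and 20 genes at this p are thus not shown to be particular to the ribosomal protein genes. After quantile normalization 8 of the 63 and 494 of all genes differed, and with each array centred on its median 34 and 648. The lower mean was in high muscling for between 57 and 63 of the 63 genes under each of these.

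Families within a muscling group differed in most of the genes. Among the sires of the same muscling group, 47 of the 63 genes differed at an adjusted p under 0.05 (limma, moderated F over 4 contrasts with sire as a fixed factor), 33 of the large and 14 of the small subunit, against 22.0% of all genes. Of the 16 genes lower in high muscling, 14 were among these 47, and RPL27 and RPS26 were not. As 74.6% of the 63 genes were among the 47, and this overlap was not counted over all genes, it is no separate result. The 5 genes with the smallest p were RPL7, RPS21, RPL29, RPL12 and RPL31. In 57 genes, 35 of the large and 22 of the small subunit, the means of the families of sires 5 and 16 were both above those of the other 4 families, and the 6 exceptions were RPL15P, RPL26, RPL38, RPL39, RPL3L and RPS6. The family of sire 5 had the highest mean for 53 of the 63 genes. The lowest mean fell to sire 17 for 22 genes, sire 7 for 20, sire 2 for 12 and sire 11 for 9. The order of the families was not counted over all genes. The 63 genes rose and fell together (median r of 0.68 over all pairs), so these counts are not 63 separate results.

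**Figure D4:**
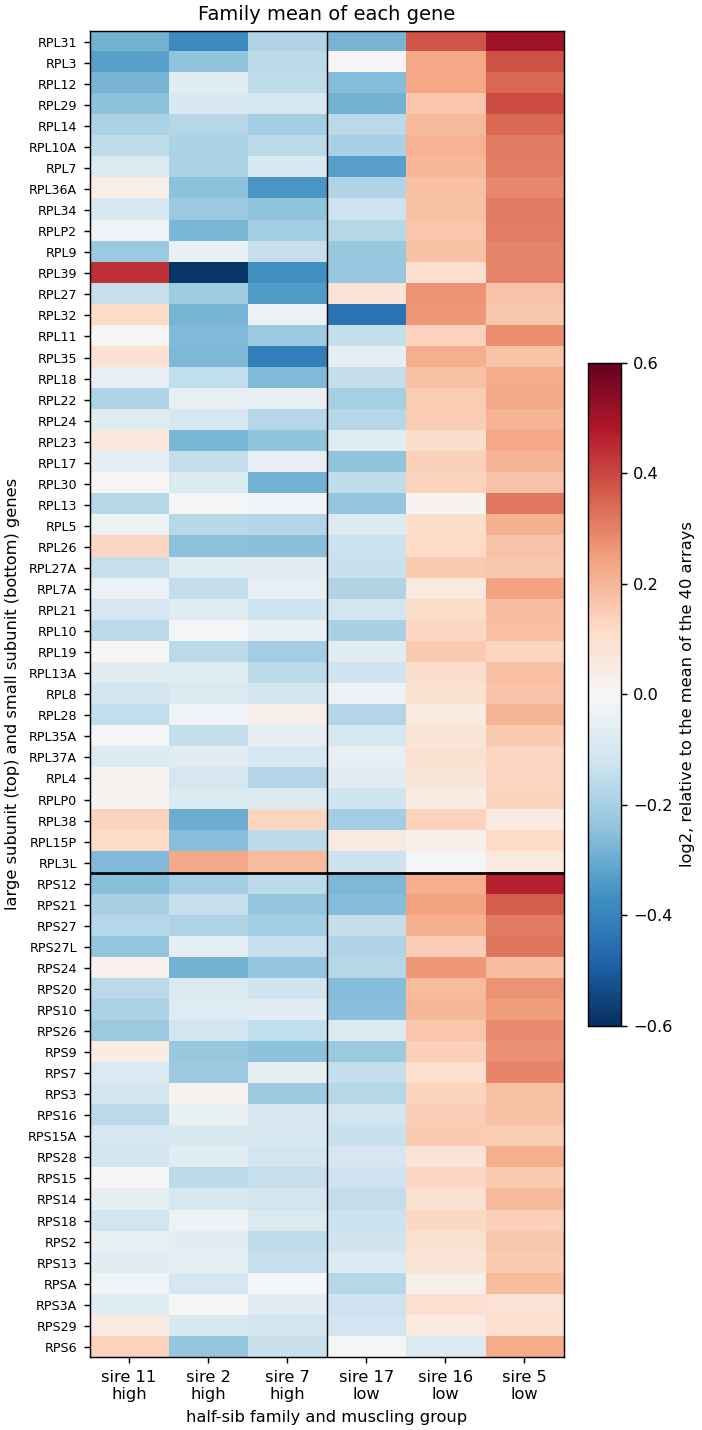
Mean of each family for the 63 detected genes, as log2 signal relative to the mean of the 40 arrays (colour). The large subunit is above and the small subunit below the black line. The genes of each are ordered by the mean of sires 16 and 5 minus the mean of the other families, with the largest at the top. The columns of sires 16 and 5 are above the mean in nearly every row, and RPL39 and RPL3L depart from the other rows in the columns of sires 11, 2 and 7.

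Within low muscling, the progeny of sire 17 were compared with those of sires 5 and 16. All 63 genes had the lower mean in sire 17, as did 59.4% of all genes. At an adjusted p under 0.05 (limma), 51 were lower, 31 of the 40 large and 20 of the 23 small subunit genes, while 9.7% of all genes were. The median difference was -0.31, against -0.07 over all genes. Leaving out each of the 5 animals in turn gave 39 to 50 genes. Quantile normalization gave 26, and 825 in place of 895 of all genes.

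RPL31 had the largest of these differences, -0.72 ± 0.11 (adjusted p = 2.35e-05), and the 5 signals of sire 17 were all under the lowest of sires 5 and 16. RPL32 of the large subunit had 4325, 4165, 4348, 5131 and 4891 in sire 17, against 5744 to 8937 with a median of 7804 in sire 16 and 3708 to 9338 with a median of 7457 in sire 5. It was lower by 0.66 ± 0.15 on the log2 scale (0.00295), and the overlap came from 1 animal of sire 5. RPS12 had 10203, 10025, 8618, 9063 and 8281 in sire 17, against 10326 to 15080.2 in sire 16 and 12601 to 17936 in sire 5, and these did not overlap. Its difference was -0.61 ± 0.10 (4.00e-05). With the mean over all probe sets of the gene, the differences were -0.33 for RPS12 (adjusted p = 0.306) and -0.01 for RPL32 (0.954).

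RPL7, RPS21, RPL29 and RPL12 had the same shape. RPL7 had 6341, 7004, 6328, 6798 and 5712 in sire 17, all below the lowest of sire 16 (8493) and of sire 5 (8848), and differed by -0.58 ± 0.07, or by -0.29 with the mean over its probe sets (adjusted p = 0.0765). RPS21 had 9432, 9530.3, 9402, 9149.9 and 8709 in sire 17, below the lowest of sire 16 (11731) and of sire 5 (12946), and differed by -0.56 ± 0.08. RPL29 had 4051, 3713, 3522, 3320.0 and 3235 in sire 17, below the lowest of sire 16 (4339) and of sire 5 (4709), and differed by -0.56 ± 0.09. RPL12, which sits at the base of the P stalk, had 9454, 7363, 8329.9, 7540.3 and 6919.8 in sire 17, just below the lowest of sire 16 (9506) and further from that of sire 5 (10683), and differed by -0.55 ± 0.08. The adjusted p of the 4 genes was 5.20e-06 to 2.82e-05. For RPL3, the mean of sire 17 lay between those of the high muscling families and those of sires 5 and 16, with signals of 8950.1, 7578, 7800.2, 7309 and 7872. The difference was -0.31 ± 0.09 (0.0217), which missed the limit after quantile normalization (0.265), with the mean over its probe sets (0.653) and without progeny 71, 85 or 88 of sire 17 (0.0508 to 0.0739).

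Within high muscling, sire 11 was compared with sires 2 and 7. Higher in sire 11 were 12 of the 63 genes (limma, adjusted p under 0.05; 7.75% of all genes), 10 of the large and 2 of the small subunit, and 1 was lower (11.8% of all genes). The median difference over the 63 genes was 0.04. In either direction 13 of the 63 genes differed (20.6%), near the 19.6% of all genes. After quantile normalization 21 genes differed in place of 13, and 1254 in place of 1246 of all genes.

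RPL39, a very small protein of the tunnel wall, differed most. It had 9234 to 12019 in sire 11, with a median of 10329, against 3919 to 6628 in sire 2, with a median of 4671, and 7056, 6959, 3964 and 6522 in sire 7. The ranges did not overlap, and the difference was 0.92 ± 0.19 (adjusted p = 0.000870). In sire 17 the gene spread most, with 2286, 10187, 5143, 11900.1 and 8752, and its standard deviation over the 40 animals, 0.54 on the log2 scale, was the largest of the 63 genes. RPL35, beside the end of the tunnel, had 9493 to 12852 in sire 11, with a median of 11481, against 7847 to 10574 in sire 2 and 8417, 9202, 7263 and 7211 in sire 7. Sires 11 and 2 overlapped for this gene, and the difference was 0.43 ± 0.08 (0.000204). The small subunit genes that were higher were RPS24 (0.29 ± 0.08, adjusted p = 0.0107) and RPS9 (0.28 ± 0.09, 0.0196), named here after their values were seen.

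RPL3L was the gene lower in sire 11. It had 1105 to 1641 in sire 11, with a median of 1280.1, against 1451 to 2315 in sire 2, with a median of 1904, and 2161, 1866, 1415 and 1922 in sire 7. The lowest animals of sires 2 and 7 fell within the range of sire 11. The difference was -0.48 ± 0.10 (adjusted p = 0.00103), while its paralog RPL3 differed by -0.12 ± 0.09 (0.341), a value that became 0.11 with the mean over its probe sets. In the low muscling families RPL3L had 1742, 1460, 1571, 1344 and 1224 in sire 17, 1275 to 1869 in sire 16 and 1415 to 2097 in sire 5, and the difference of sire 17 from the other families was -0.15 ± 0.11 (0.401).

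**Figure D5:**
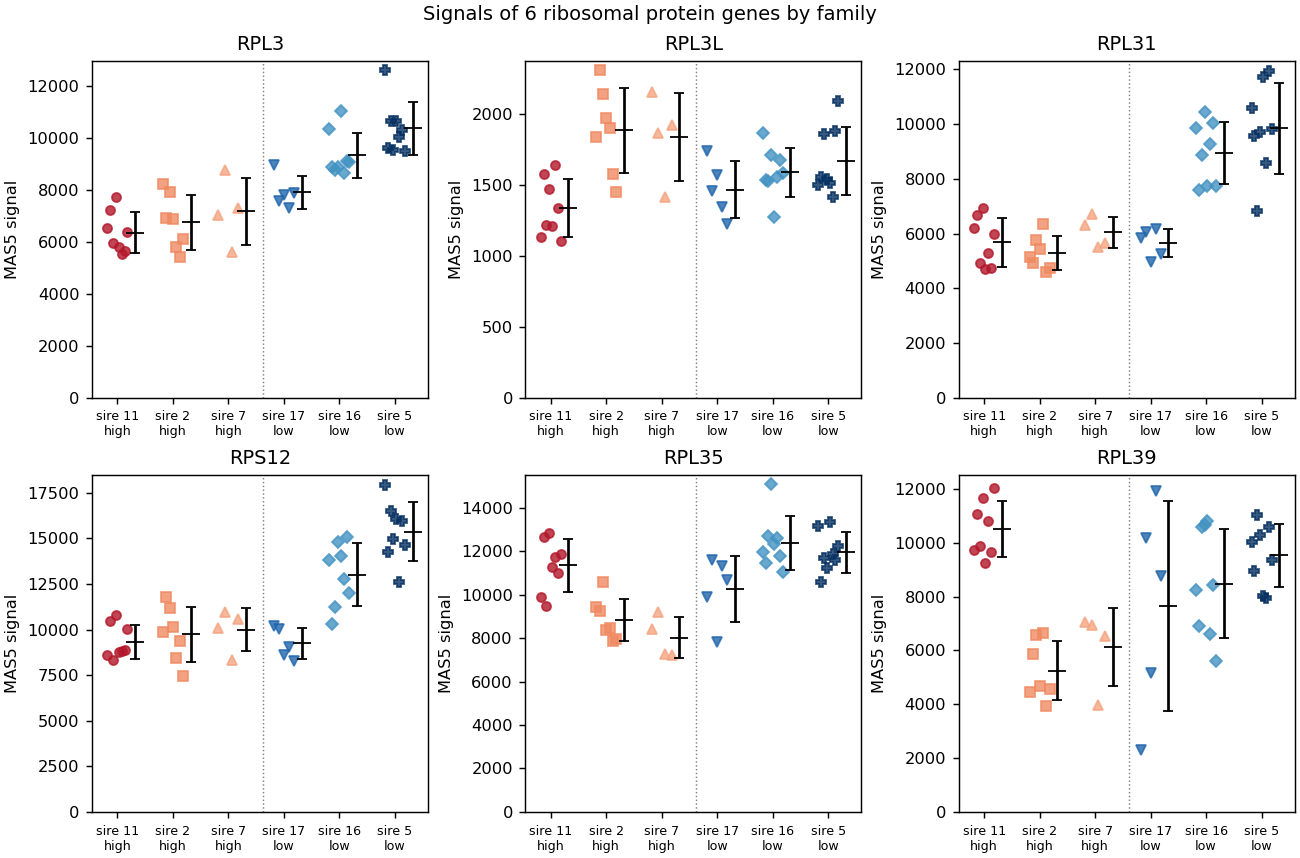
MAS5 signals of RPL3, RPL3L, RPL31, RPS12, RPL35 and RPL39 in each animal by sire family, with the family mean and SD beside the points and a dotted line between high and low muscling. RPL31 and RPS12 show sire 17 at the level of the high muscling families, RPL3L and RPL39 show opposite shifts of sire 11 against sires 2 and 7, and RPL39 spreads widely in sire 17 (2286 to 11900.1).

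The remaining pairs of families gave no differing gene. Between sires 2 and 7, limma found 0 of the 63 genes (0.0% of all genes) at an adjusted p under 0.05, and 3 at an unadjusted p under 0.05, where 5.58% of all genes were found. These were RPL38, at -0.43 ± 0.16 (adjusted p = 0.747), RPS3, at 0.24 ± 0.10 (0.859), and RPL30, named here after its value was seen, at 0.20 ± 0.09 (0.863). Between sires 16 and 5, it found 0 of the 63 genes (0.0314% of all genes, that is 2 genes). At an unadjusted p under 0.05, 9 were lower in sire 16 and none was higher, while 6.51% of all genes differed in either direction. The largest difference was that of RPS6, the target of the S6 kinases, at -0.31 ± 0.14 (0.719), followed by RPL13 at -0.30 ± 0.08 (0.468) and RPS12 at -0.24 ± 0.09 (0.630). The mean of sire 16 was the lower for 55 of the 63 genes and for 53.3% of all genes. The median difference was -0.08, against -0.01 over all genes. With 7 and 4 animals for sires 2 and 7, the intervals were wide (-0.74 to -0.11 for RPL38), and these values do not show that the families were alike. The 7 genes that passed in none of the comparisons were RPL37A, RPL4, RPL7A, RPL8, RPS28, RPS29 and RPS6. The share of all genes that passed in none was not counted.

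Across the 40 animals the genes rose and fell together. The 780 pairs of large subunit genes had a median Pearson r of 0.66, the 253 pairs of small subunit genes 0.72 and the 920 pairs between the subunits 0.69, so the pairs across the subunits lay between the pairs within them. RPS14, on the platform of the small subunit, had the highest mean r with the other genes (0.760), followed by RPL34 (0.757) and RPL14 (0.757). At the low end were RPL38 (0.358), which in mice is needed for the translation of Hox mRNAs, RPS28 (0.296) and RPL3L (0.155). The least variable genes were RPS3A, RPLP0 and RPS13, with standard deviations of 0.12, 0.12 and 0.13 on the log2 scale, and the most variable were RPL39 (0.54), RPL31 (0.41) and RPL32 (0.38). The pairs share the same arrays and the same families, and the median r between the subunits was 0.47 when family means were removed and 0.42 in high muscling alone.

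Genes of the same pathway were taken from lists. Their counts stand beside 350 lower (5.5%) and 145 higher of the 6360 genes between high and low muscling, and 617 lower (9.7%) and 278 higher for sire 17. Of 14 tested translation factors and other mRNAs of the TOP class, 4 were lower and 0 higher in high muscling (limma, adjusted p under 0.05), with a median of -0.13. EEF1B2, an exchange factor of elongation factor 1, differed by -0.40 ± 0.08 (adjusted p = 0.00267) and had an r of 0.93 with the mean of the ribosomal protein genes over the 40 animals. EIF3E, a subunit of initiation factor 3, differed by -0.38 ± 0.12 (0.0416). The others were BTF3, which helps to receive nascent chains (-0.18 ± 0.06, 0.0475), and FAU (-0.22 ± 0.07, 0.0483), whose product is cut into a ubiquitin-like protein and a protein of the small subunit that the symbol rule leaves out. BTF3 and FAU are named here after their values were seen. In sire 17, 5 of the 14 were lower and 0 higher than in sires 5 and 16.

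Of 31 tested ribosome biogenesis factors, 3 were lower and 0 higher in high muscling, with a median of -0.09. EIF6, which keeps the large subunit from joining too early, differed by -0.39 ± 0.10 (adjusted p = 0.0105), FBL, the methyltransferase of ribosomal RNA, by -0.33 ± 0.10 (0.0413) and SBDS, which helps to release EIF6, by -0.30 ± 0.10 (0.0454). SBDS is named here after its value was seen. In sire 17, 2 of the 31 were lower and 3 higher, EIF6 differed by 0.00 ± 0.11 (0.994), FBL by 0.14 ± 0.12 (0.470) and SBDS by -0.18 ± 0.11 (0.284). Of 16 tested genes that control ribosome production and translation, 1 was higher and 1 lower in high muscling. The higher was EIF4G1, the scaffold of the cap-binding complex (0.33 ± 0.08, 0.0125), whose r with the mean of the ribosomal protein genes was -0.64, and the lower was RHEB, the activator of mTOR (-0.27 ± 0.08, 0.0402). In sire 17, 1 of the 16 was higher and 2 were lower. The higher was RPS6KB1, an S6 kinase named here after its values were seen, with 0.66 ± 0.11 in sire 17 (0.000141) and 0.78 ± 0.10 in sire 11 (2.02e-06).

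Markers of other cells moved in part with the subunit levels between the families. The summed signal of leukocyte and macrophage markers (6 of 9 measured, 4 detected, PTPRC and CD2 not) had family medians of 849.1 (sire 11), 823.0 (sire 2), 740.5 (sire 7), 1117 (sire 16), 791.9 (sire 17) and 1200 (sire 5), ranged from 569.4 to 1012 in high and 662.1 to 1428 in low muscling, and had an r of 0.44 with the large subunit. That of fibroblast and connective tissue markers (7 of 7 measured, 6 detected, POSTN not) ranged from 5367 to 12917 in high and 8319 to 24995 in low muscling, with r = 0.42. Its family medians were 9824 (sire 11), 9109 (sire 2), 7957 (sire 7), 14703 (sire 16), 11539 (sire 17) and 14675 (sire 5), so sire 17 was above the high muscling families here. That of endothelial markers (6 of 6 measured, 5 detected, KDR not) ranged from 1463 to 2380.0 in high and 1735 to 3117 in low muscling, with r = 0.37 and the lowest family median in sire 11 (1883). Smooth muscle and pericyte markers (5 of 5 measured, all detected) ranged from 3884 to 6470.0 in high and 4069 to 7830.4 in low muscling, with r = 0.38, and fat cell markers (6 of 7 measured, 5 detected, LEP not) from 574.9 to 5432 and 778.9 to 7514, with r = 0.29. The family medians of the fat cell markers were 875 (sire 11), 1551 (sire 2), 1063 (sire 7), 1423 (sire 16), 954.5 (sire 17) and 1369 (sire 5). Sire 2, of high muscling and with a low subunit level, was thus highest for these markers. Muscle fibre markers had r = -0.06, and the ratio of the 3′ to the 5′ signal of GAPDH, a measure of RNA integrity, had r = 0.03 and ranged from 1.05 to 1.38 in high and 0.957 to 1.32 in low muscling. The same ratio of actin had r = 0.14. That of EF1A had r = 0.24, with family medians of 0.00776 in sire 17, 0.0149 in sire 16, 0.0120 in sire 5 and 0.0146 to 0.0160 in the high muscling families. It ranged from 0.00722 to 0.0205 in high and 0.00566 to 0.0267 in low muscling, far below the ratios of GAPDH and actin. The 3′ signal of EF1A was thus very weak beside its 5′ signal, and this ratio cannot be read as a measure of RNA integrity like the other 2. The part of these cells, and of RNA integrity, in the differences was not tested.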

How the data were processed

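RNA was extracted with Trizol, labelled with biotin and hybridised, and the authors computed the deposited intensity of each probe set with MAS5 (not log transformed). The trimmed mean of every array, without the upper and lower 2%, was 200.1, so the arrays had been scaled to a common value. No present flags and no scan dates were used here. All columns of the table matched a sample.

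Of 24016 probe sets other than controls, 13292 had 1 gene symbol in the platform annotation, 86 had several and 10638 had none; those without a single symbol were not used here. The log2 of each signal was taken with no further normalization. The 6360 genes whose mean signal reached 61.8 were tested with limma 3.58.1 in R 4.3.3, with p-values adjusted over all of them by Benjamini-Hochberg. High and low muscling were compared with sire as a random block (correlation 0.135), and families with sire as a fixed factor, as the F over 4 contrasts within muscling groups and as each contrast. The correlation is 1 value for all genes. Sires of the same group differed in 47 of the 63 genes, against 22.0% of all genes. The value may thus be too low for these genes, and their standard errors and p-values between high and low muscling too small. Nothing says that the animals of a group came from separate dams, and the muscling groups rest on 3 sires each. Summaries were made with Python 3.11.15, pandas 2.3.3, numpy 2.4.6 and scipy 1.17.1. The scripts were tested on simulated data.

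The genes, lists and tests were chosen with earlier results of these data known. Genes named are RPL3 and RPL3L, the 10 with the smallest p between high and low muscling, the 5 with the smallest p among sires, the 3 with the largest difference in each contrast of sires, the 3 with the highest and lowest standard deviation and mean r, the 2 with the highest and lowest signal, those not detected, and the 2 of each list with the smallest p; others are named as chosen later. Cell type markers were summed as signals. Alternatives covered median centring and quantile normalization of the arrays, the 20th percentile as a floor, no detection filter, the mean over probe sets, no block, sire means as samples, each family left out and each animal of sires 7 and 17 left out, and for the correlations also Spearman, family means removed and each muscling group alone. The markers of red blood cells had a summed signal of 85.6 to 457.9 in high and 82.3 to 403.0 in low muscling.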

Additional observations from a re-analysis of the deposited data

Results flagged for a closer look

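Some animals lay far from the others of their family. This was looked for in 31 genes and levels in each of the 6 families, with Dixon's test, which by chance marks about 1 in 20 families. It marked 9 of 186, about as many as chance gives. Progeny 43 of sire 16 was marked for 3 genes, as the highest of its family: RPL35 at 15092 (next 12683), RPL4 at 23081 (next 20102) and RPS21 at 16379 (next 13435). RPL3 was highest in progeny 11 of sire 5, at 12583 (next 10651). RPL18 was highest in progeny 3 of sire 2, at 8127 (next 7538), and RPS3A in progeny 35 of sire 11, at 19589 (next 17768). RPL32 was lowest in progeny 30 of sire 5, at 3708 (next 6148), and RPL39 in progeny 69 of sire 7, at 3964 (next 6522). The large minus the small subunit level was lowest in progeny 32 of sire 5, at -0.13 (next -0.01).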

How the results depend on the processing

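The count of 16 genes lower in high muscling stayed within 1.5 times that value with a floor (14), with no detection filter (18), with the mean over probe sets (14) and without the progeny of sire 11 (22). Among all genes, 491, 590 (of 9155), 456 and 685 were called in the same order, against 495. The count was 8 after quantile normalization, 34 after median centring, 44 with no block and 0 with sire means as samples, where 3 genes had an unadjusted p under 0.05. Among all genes, 494, 648, 1586 and 0 were called in the same order. Without the progeny of a sire the count was 5 (sire 2), 0 (sire 5), 6 (sire 7), 0 (sire 16) and 50 (sire 17) with limma, and 10 (sire 5) and 20 (sire 16) at an unadjusted p under 0.05. Among all genes, 290, 23, 272, 29 and 1221 were called without these sires. The share of all genes at an unadjusted p under 0.05 was not counted in these fits. Quantile normalization also gave 21 in place of 13 genes for sire 11, with 1254 in place of 1246 of all genes. For sire 17 it gave 26 in place of 51, with 825 in place of 895 of all genes. The differences of sire 17 in subunit level became -0.20 (large) and -0.20 (small) in place of -0.34 and -0.33. The cause was not tested. The counts among sires, of sires 2 and 7 and of sires 16 and 5 kept within 1.5 times under each alternative run. The large minus small level of sire 11 was 0.0164 with the mean over probe sets. The median r fell to 0.41 (large), 0.44 (small) and 0.40 (between) after quantile normalization, to 0.40, 0.48 and 0.42 in high muscling alone, and to 0.47 (between) without family means. RPL3 in sire 11 was 0.11 with the mean over probe sets. RPL3L between high and low muscling was -0.00688 with median centring, -0.0588 without sire 2 and -0.00680 without sire 7. Of the other values of named genes between high and low muscling, 95 stayed on their side of the limit and 45 lost it, with no change of direction. The number of sires, 3 in each group, and the probe sets, made for another species, limit these values. No paired analysis was possible because progeny numbers do not repeat between groups.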
